A study of Mus musculus with 20 samples.

Results

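The genes described here make or regulate the surface of the lipid droplet and the release of fatty acids from it: the droplet coat genes Plin2, Plin4 and Plin5, the droplet fusion genes Cidea and Cidec, the lipase Pnpla2 with its inhibitors G0s2 and Hilpda, and the triglyceride synthesis genes Mogat1 and Dgat2. They were taken by symbol from the gene count table of the liver, where each of the 10 symbols named 1 of 48440 genes. Of these 10, 9 passed the filter on low counts that left 16071 genes tested, and Cidea, with 0 counts in all 20 livers, was the gene left out. The samples were livers of wild-type female C57BL/6 mice (C57BL/6J in the study's methods), 8 weeks old at the start, in 4 groups of 5. All mice were injected intraperitoneally with 5 mg per kg of antibody 2 times per week. The groups Isotype + Vehicle and Isotype + CORT (IgG_Veh and IgG_CORT in the labels) were given an IgG2a isotype control antibody. The groups αACBP + Vehicle and αACBP + CORT (DBI_Veh and DBI_CORT) were given a monoclonal antibody that neutralizes acyl coenzyme A binding protein (ACBP, also called diazepam binding inhibitor, DBI). Inside cells this protein binds activated fatty acids, and outside cells it acts as a factor that stimulates appetite and lipid storage. CORT is corticosterone, the main glucocorticoid of the mouse, which was supplied in the drinking water at 100 µg per ml for 5 weeks. Vehicle is the ethanol in which it was dissolved. The comparisons therefore asked how the droplet genes differed with CORT under either antibody, and how they differed with αACBP with or without CORT.

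Hepatocytes store surplus fatty acids as triglyceride in cytoplasmic lipid droplets. Perilipins cover the droplet and limit access of lipases, and proteins of the CIDE family bring droplets together so that the larger droplet grows. The first step of triglyceride breakdown is carried out by adipose triglyceride lipase, the product of Pnpla2, which needs the cofactor ABHD5 and is held back by the small proteins G0S2 and HILPDA. Glucocorticoid excess, as in Cushing's syndrome, is known to bring fat into the liver.

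G0s2 was the member that changed with CORT, Pnpla2 is the lipase it inhibits, and Plin2 and Plin5 were the coat genes next to G0s2 in the size of their adjusted p with CORT under αACBP. For these 4 genes the 250 bases before the transcription start of RefSeq are shown, 5′ to 3′ on the gene's strand (build GRCm38.p6). For Plin5, which has 2 starts, the window of the upstream start is shown. The windows lie at chr1:193273189-193273438 (minus strand, G0s2), chr7:141454938-141455187 (plus, Pnpla2), chr4:86670060-86670309 (minus, Plin2) and chr17:56117549-56117798 (minus, Plin5). Capitals mark matches on either strand to the nuclear receptor core AGGTCA and to the hypoxia cores ACGTG and GCGTG.
G0s2: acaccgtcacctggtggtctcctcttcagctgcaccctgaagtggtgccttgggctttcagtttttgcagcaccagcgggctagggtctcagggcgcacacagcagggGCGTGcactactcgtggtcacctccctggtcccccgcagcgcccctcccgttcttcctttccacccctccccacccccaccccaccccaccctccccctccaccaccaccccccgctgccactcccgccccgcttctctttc
Pnpla2: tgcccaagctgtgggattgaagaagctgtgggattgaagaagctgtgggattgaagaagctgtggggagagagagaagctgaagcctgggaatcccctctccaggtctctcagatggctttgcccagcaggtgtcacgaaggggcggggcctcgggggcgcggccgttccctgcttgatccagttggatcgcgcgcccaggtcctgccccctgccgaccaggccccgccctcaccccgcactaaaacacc
Plin2: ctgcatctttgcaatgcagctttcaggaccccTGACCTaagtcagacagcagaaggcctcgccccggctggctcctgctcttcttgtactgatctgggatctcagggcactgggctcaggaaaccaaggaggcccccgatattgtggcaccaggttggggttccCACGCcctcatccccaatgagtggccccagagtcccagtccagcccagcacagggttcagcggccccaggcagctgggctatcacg
Plin5: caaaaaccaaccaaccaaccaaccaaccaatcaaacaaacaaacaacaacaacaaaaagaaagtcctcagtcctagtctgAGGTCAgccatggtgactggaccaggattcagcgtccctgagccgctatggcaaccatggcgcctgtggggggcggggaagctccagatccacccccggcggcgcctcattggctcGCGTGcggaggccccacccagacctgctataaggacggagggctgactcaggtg

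The core AGGTCA was found in the window of Plin2, on the opposite strand 218 bases before the start, and in that of Plin5, 170 bases before the start, and 14% of 32851 promoter windows of this length hold it. The hypoxia core GCGTG, present in 28.2% of windows, was found in those of G0s2, Plin2 and Plin5, and the Pnpla2 window held none of the letters searched. The window of Hilpda, a gene named for its induction by hypoxia, held GCGTG at 2 places and ACGTG, present in 16.6% of windows, at 1. That of Mogat1 held GCGTG at 2 places and that of Cidec at 1. None of the members' windows held the glucocorticoid receptor core AGAACA, which 16.1% of all windows hold, nor the full palindrome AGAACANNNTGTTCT, which 0.00913% hold. The promoters of Cidea and Dgat2 were not used here.

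By identifier, the members were placed on GRCm39 with the GENCODE M39 annotation. G0s2 spans chr1:192949563-192956177 on the minus strand and its main transcript has 2 exons. Pnpla2 spans chr7:141034404-141040656 on the plus strand, with 9 exons, and Plin2 chr4:86565912-86588459 on the minus strand, with 8. Plin4 (chr17:56406617-56416931) and Plin5 (chr17:56418446-56424610) are neighbours on the minus strand of chromosome 17. The values are read counts per whole gene, so exons, introns and untranslated parts are not told apart. Of the Plin4 transcript, 41.9% lies opposite exons of Hdgfl2 (Hdgfrp2 in the table), and 13.2% of the Pnpla2 transcript lies opposite Gm72429. Whether strand was used in the counting is not given in the sources used here, so reads of such partners cannot be told apart. The transcripts of G0s2, Plin2, Plin5 and Dgat2 have no such overlap.

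The gene counts of a liver summed to between 14934926 and 20299999. Levels are given as CPM, the gene's count scaled to a library of fixed size with TMM factors, and 3 counts, the floor used here, were worth at most 0.205 CPM. Livers of the same group correlated at r = 0.869 to 0.958 over the genes tested. Replicate 5 of αACBP + Vehicle stood furthest from its group (median r 0.873), followed by replicates 2 and 1 of Isotype + CORT (0.892 and 0.893). The adipocyte gene Lep was at 0 counts in all livers, Plin1 and Adipoq were at 0 in all livers of Isotype + CORT and αACBP + Vehicle, and the summed level of the adipocyte list without Adrb3 had a median of 5.45 CPM (highest 5.93) in Isotype + Vehicle, 0.0644 (0.751) in Isotype + CORT, 0 (0) in αACBP + Vehicle and 0.632 (1.03) in αACBP + CORT. Adrb3, which made up nearly all of the sum of that list, lies opposite Gm45470 over 50.2% of its transcript.

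The order of the members was read from the mean CPM per kilobase of the main transcript. In the Isotype + Vehicle livers Dgat2, which joins the last fatty acid to make triglyceride, was the highest at 139 ± 21.4 CPM per kilobase (SD, n = 5). Plin2, the coat protein found on droplets of most cells, followed at 102 ± 21.5 and G0s2 at 59.4 ± 12.6. Pnpla2 stood at 28.1 ± 5.68 and Plin5, the perilipin of fat-burning tissues, at 14.4 ± 3.14. The remaining members were near or under 1.5 CPM per kilobase, with Hilpda at 1.54 ± 0.311, Plin4 at 0.735 ± 0.292, Cidec at 0.685 ± 0.547 and Mogat1 at 0.225 ± 0.319. Dgat2 and Plin2 overlapped in their ranges over livers, as did Plin2 and G0s2, and Plin4, Cidec and Mogat1, whereas the steps from G0s2 to Pnpla2, from Pnpla2 to Plin5, from Plin5 to Hilpda and from Hilpda to Plin4 were free of overlap. In the Isotype + CORT livers G0s2 (174 ± 60.4) stood second, between Dgat2 (186 ± 59.1) and Plin2 (158 ± 87.6), and these 3 overlapped.

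**Figure D1:**
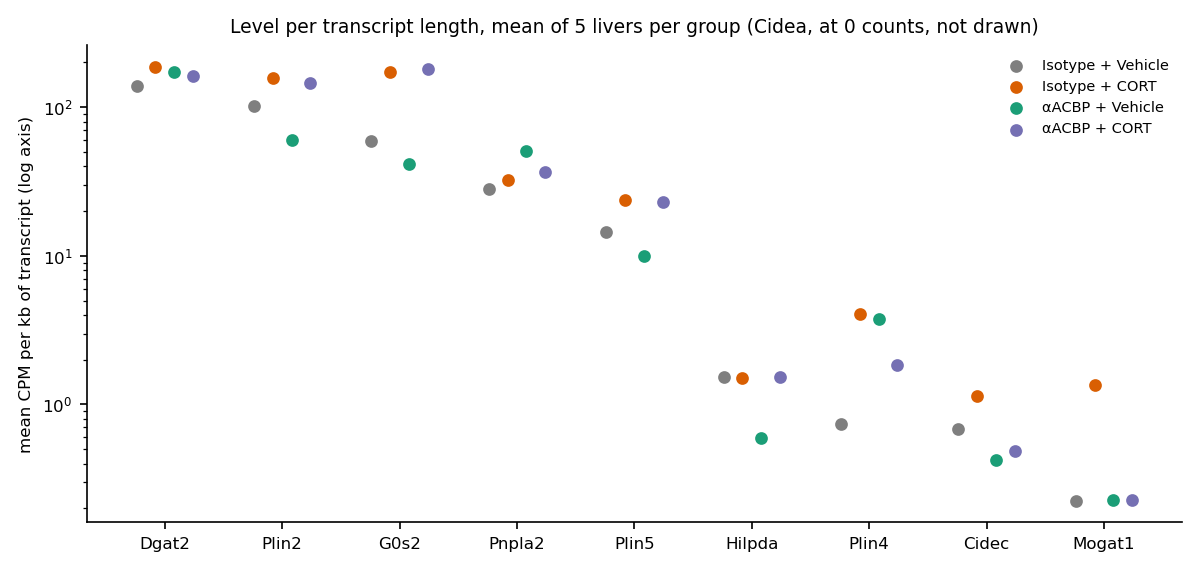
Mean CPM per kilobase of transcript (log axis) of the 9 members with counts, in the 4 groups, each point being the mean of 5 livers with no error drawn. Dgat2, Plin2 and G0s2 lie highest, and G0s2 is the member with both CORT groups, at 174 and 180, well above both vehicle groups, at 59.4 and 41.7.

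Among the regulators of lipolysis, G0s2 rose with CORT under either antibody. In the Isotype + Vehicle livers it was at 65.9, 105, 114, 121 and 98.4 CPM, and in the Isotype + CORT livers at 298, 249, 469, 211 and 246 CPM. All 5 CORT livers were above all 5 vehicle livers. The means were 101 ± 21.4 and 294 ± 102 CPM (SD, n = 5), a log2 fold change of 1.55 ± 0.32 (SE), or 2.92-fold (edgeR's quasi-likelihood test with Benjamini-Hochberg adjustment over all genes tested, adjusted p = 0.00950). A gene was called when its adjusted p was 0.05 or lower and its log2 fold change was 1 or more in either direction, and by this rule G0s2 was the 1 member called of 9 tested, beside 1.94% of all genes tested. In whole liver, fewer cells of a type and less RNA per cell cannot be told apart.

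With αACBP in both arms, G0s2 was at 58.9, 68.5, 38.1, 92.8 and 95.4 CPM in the αACBP + Vehicle livers and at 543, 293, 340, 238 and 109 CPM in the αACBP + CORT livers. Again the groups were free of overlap, although the lowest CORT liver, replicate 5 at 109 CPM, lay just above the highest vehicle liver at 95.4 CPM. The means were 70.7 ± 24 and 305 ± 159 CPM, a log2 fold change of 2.11 ± 0.33, or 4.31-fold (adjusted p = 0.0101). G0s2 was again the 1 member called, beside 0.212% of genes. The size of the CORT response was not shown to differ between the antibodies, since the interaction of CORT and αACBP for G0s2 was 0.56 ± 0.45 on the log2 scale (adjusted p = 0.751). Under CORT the means of both antibody groups, 294 and 305 CPM, differed by less than their spread, with a log2 fold change of 0.05 ± 0.32 (adjusted p = 0.985). Without CORT the mean of G0s2 was lower with αACBP, but the groups overlapped and neither limit was passed (log2 fold change -0.51 ± 0.32, adjusted p = 0.393). Set against Isotype + Vehicle, the αACBP + CORT livers gave 1.60 ± 0.32 (adjusted p = 0.0547), and replicate 5, at 109 CPM, lay inside the range of Isotype + Vehicle. Without that liver the value was 1.81 and passed (adjusted p = 0.00118). It also passed without replicate 3 of Isotype + CORT (adjusted p = 0.0310) or replicate 3 of αACBP + Vehicle (adjusted p = 0.0409). These livers are in neither group compared and enter through the filter, the scaling and the estimate of the spread, which all groups share.

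**Figure D2:**
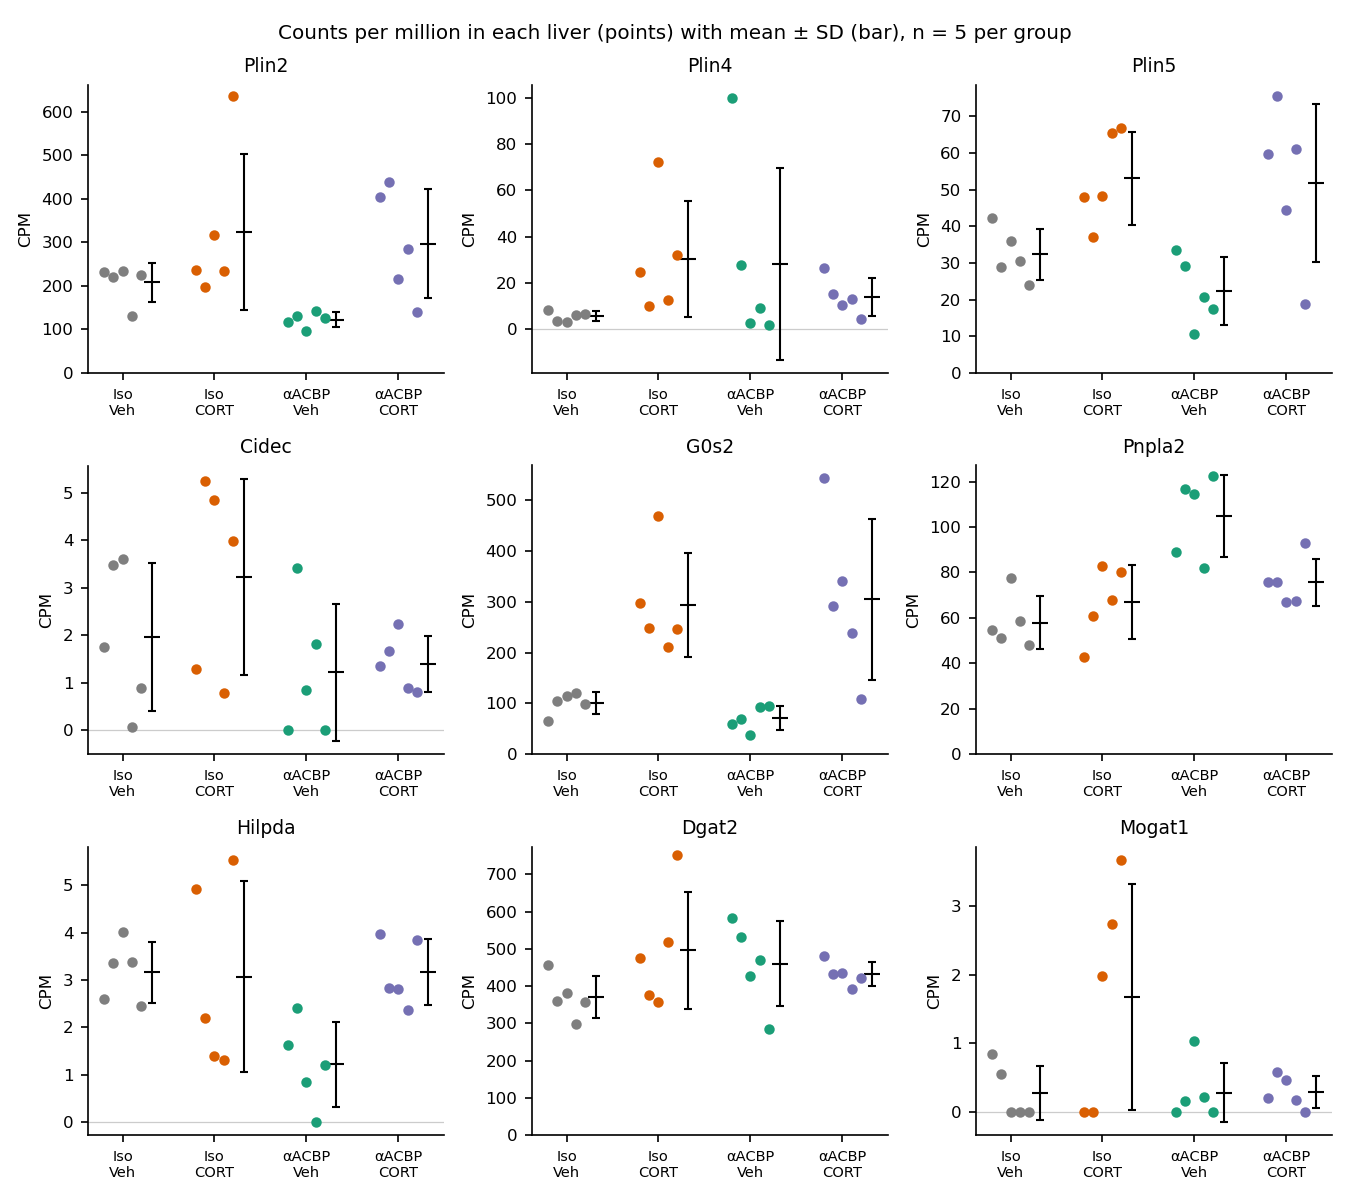
CPM of the 9 members with counts, each point being 1 liver and each bar the mean ± SD of 5 livers, with a linear axis of its own for each gene. G0s2 shows both CORT groups above both vehicle groups but for replicate 5 of αACBP + CORT at 109 CPM, and Plin4 shows 1 αACBP + Vehicle liver at 100.3 CPM.

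Pnpla2, the lipase itself, was at 54.6, 51.0, 77.6, 58.4 and 47.9 CPM in Isotype + Vehicle and at 43.0, 60.7, 83.1, 68.1 and 80.0 CPM in Isotype + CORT. These groups overlapped, and the log2 fold change with CORT was 0.21 ± 0.18 (adjusted p = 0.670). In the αACBP + Vehicle livers Pnpla2 was at 89.0, 117, 114, 81.9 and 122 CPM, so all 5 livers were above all 5 of Isotype + Vehicle. The mean was 105 ± 18.2 against 57.9 ± 11.7 CPM, a 1.81-fold difference with a log2 fold change of 0.86 ± 0.18 (adjusted p = 0.00833). This passed the limit on the adjusted p, as 5.14% of genes did in this comparison, but not the fold limit, so Pnpla2 was not called. In αACBP + CORT it was at 75.6, 75.7, 66.8, 67.2 and 92.8 CPM, between the other groups. The log2 fold change with CORT under αACBP was -0.47 ± 0.18 (adjusted p = 0.248), that with αACBP under CORT 0.18 ± 0.18 (adjusted p = 0.799), and that of αACBP + CORT against Isotype + Vehicle 0.39 ± 0.18 (adjusted p = 0.610). The interaction was -0.68 ± 0.25 and did not pass (adjusted p = 0.278).

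Hilpda, the other inhibitor of the lipase, was low in every liver. It was at 2.59, 3.37, 4.01, 3.38 and 2.46 CPM in Isotype + Vehicle and at 1.62, 2.41, 0.84, 0 and 1.21 CPM in αACBP + Vehicle. Each of the latter livers lay under each of the former, by a narrow gap between 2.41 and 2.46 CPM, with a log2 fold change of -1.37 ± 0.65 (adjusted p = 0.229). Both CORT groups, from 1.30 to 5.54 CPM under isotype and from 2.37 to 3.96 CPM under αACBP, covered the Isotype + Vehicle mean of 3.16 CPM. The log2 fold change with CORT under αACBP was 1.37 ± 0.65 (adjusted p = 0.378).

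With αACBP without CORT the adipocyte marker Cfd was called lower. It ranged from 0 to 4.58 CPM in Isotype + Vehicle and was at 0 in every αACBP + Vehicle liver, and the list without Adrb3 was at 0 in all 5 αACBP + Vehicle livers. Of the 2 genes of the list that were tested, 1 had a positive and 1 a negative log2 fold change. The sum of the full list, nearly all of it Adrb3, went the other way. It was 48.6 to 77.4 CPM in αACBP + Vehicle against 33.4 to 57.2 CPM in Isotype + Vehicle. The part of adipocyte RNA in the Pnpla2, Hilpda and Plin4 values was not tested.

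Because G0S2 binds the lipase, the ratio of G0s2 to Pnpla2 counts was computed in each liver. This measure was chosen after the values of both genes had been seen, so it describes these livers and adds no independent evidence. There were 1.21, 2.06, 1.47, 2.07 and 2.06 G0s2 counts per Pnpla2 count in Isotype + Vehicle and 6.93, 4.11, 5.65, 3.10 and 3.07 in Isotype + CORT. In αACBP + Vehicle the ratios were 0.661, 0.585, 0.333, 1.13 and 0.780, and in αACBP + CORT they were 7.18, 3.86, 5.10, 3.54 and 1.18. The ratio was thus highest with CORT and lowest in αACBP + Vehicle, with replicate 5 of αACBP + CORT, at 1.18, just above the highest αACBP + Vehicle liver.

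On the log2 scale the ratio was higher with CORT by 1.32 ± 0.28 (SE) under isotype and by 2.47 ± 0.53 under αACBP. Without CORT the difference of αACBP minus isotype was -1.42 ± 0.33. Groups did not overlap in these 3 comparisons, each with p = 0.00794 in a two-sided exact permutation test, the smallest that 5 livers against 5 allow (0.0132 after Benjamini-Hochberg adjustment over 5 comparisons). The 2 CORT groups differed by -0.27 ± 0.50 (exact permutation p = 0.675, adjusted 0.675). The ratio of αACBP + CORT exceeded that of Isotype + Vehicle by 1.05 ± 0.47 (exact permutation p = 0.0714, adjusted 0.0893), and by 1.45 without replicate 5 of αACBP + CORT (exact permutation p = 0.0159).

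**Figure D3:**
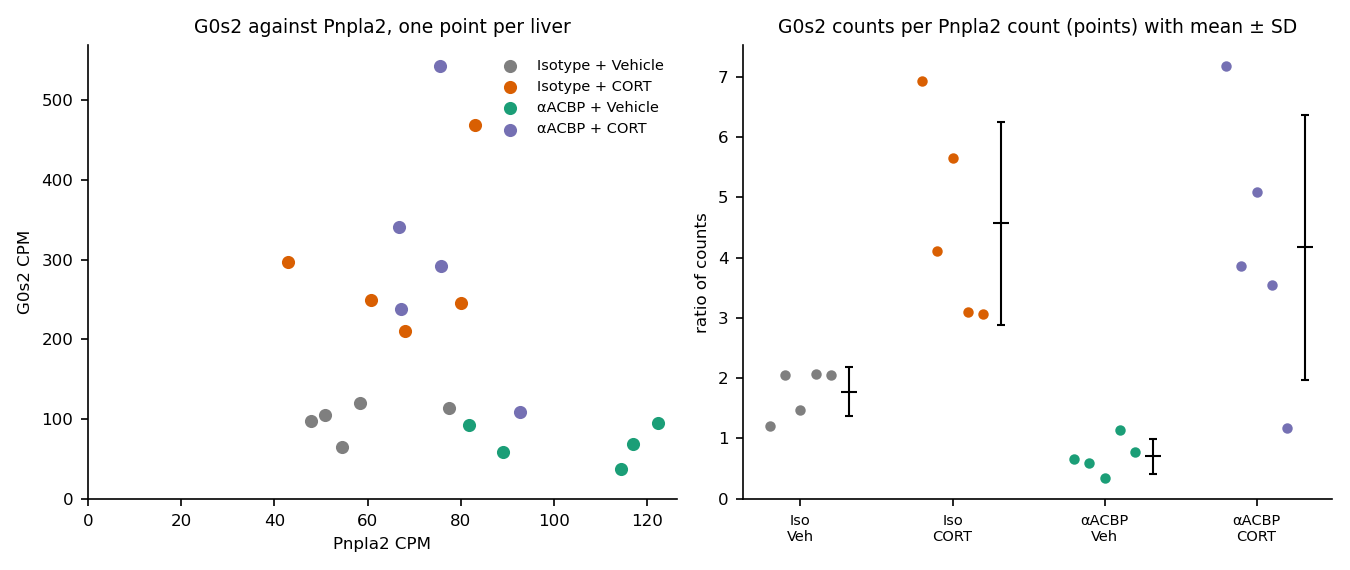
Left, G0s2 against Pnpla2 in CPM, each point being 1 liver. Right, the ratio of G0s2 to Pnpla2 counts per liver with the mean ± SD of 5 livers per group, from 0.698 ± 0.293 in αACBP + Vehicle to 4.57 ± 1.69 in Isotype + CORT.

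Of the coat genes, none was called in any comparison by the edgeR test, and Plin2 and Plin5 came closest with CORT under αACBP. There 2 other methods, DESeq2 and limma's voom, called both, beside 112 genes in all with DESeq2 and 155 with voom. Plin2 was at 232, 220, 235, 130 and 224 CPM in Isotype + Vehicle and at 236, 197, 317, 235 and 636 CPM in Isotype + CORT. The groups overlapped, replicate 5 of Isotype + CORT stood alone at 636 CPM, and the log2 fold change was 0.64 ± 0.29 (adjusted p = 0.279), or 0.24 without that liver. In αACBP + Vehicle Plin2 was at 116, 131, 97.1, 142 and 127 CPM and in αACBP + CORT at 403, 439, 216, 284 and 140 CPM. Of the αACBP + CORT livers, 4 were above every αACBP + Vehicle liver and replicate 5, at 140 CPM, lay within their range. The log2 fold change was 1.28 ± 0.29 (adjusted p = 0.0577).

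Plin5 was at 42.4, 28.9, 35.9, 30.5 and 24 CPM in Isotype + Vehicle and at 47.9, 37.0, 48.3, 65.5 and 66.7 CPM in Isotype + CORT. The ranges met only at 37.0 and 42.4 CPM, and the log2 fold change was 0.71 ± 0.30 (adjusted p = 0.215). In αACBP + Vehicle it was at 33.7, 29.2, 10.7, 20.8 and 17.5 CPM and in αACBP + CORT at 59.7, 75.4, 44.5, 61.2 and 18.8 CPM, with replicate 5 again the low liver (log2 fold change 1.21 ± 0.30, adjusted p = 0.0762). Without this liver both coat genes passed both limits, Plin2 at 1.46 (adjusted p = 0.00471) and Plin5 at 1.43 (adjusted p = 0.00212). Then 3 members were called in this comparison instead of 1, while over all genes tested 153 were called instead of 34. Plin2, but not Plin5, also passed both limits without replicate 2 (adjusted p = 0.0446) or replicate 5 (adjusted p = 0.00861) of Isotype + CORT.

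Between the antibodies, Plin2 gave -0.77 ± 0.29 without CORT (adjusted p = 0.124) and -0.13 ± 0.29 with CORT (adjusted p = 0.943). For Plin5 the corresponding values were -0.53 ± 0.30 (adjusted p = 0.326) and -0.03 ± 0.29 (adjusted p = 0.988). Against Isotype + Vehicle, the αACBP + CORT livers gave 0.51 ± 0.29 for Plin2 (adjusted p = 0.780) and 0.68 ± 0.30 for Plin5 (adjusted p = 0.542). The interaction was 0.64 ± 0.41 for Plin2 (adjusted p = 0.640) and 0.50 ± 0.42 for Plin5 (adjusted p = 0.769). Over the 20 livers, with the group means set to 0, Plin2 and Plin5 correlated at r = 0.635 and Plin4 and Plin5 at r = 0.644, values given as a description of livers that share libraries and depth.

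Plin4, a perilipin best known from fat and muscle, was the most uneven coat gene. It was at 8.31, 3.43, 3.15, 6.07 and 6.41 CPM in Isotype + Vehicle and at 24.6, 10.1, 72.2, 12.7 and 32.0 CPM in Isotype + CORT. All CORT livers were above all vehicle livers, but the highest was 7.18 times the lowest and the log2 fold change of 2.47 ± 0.93 did not pass (adjusted p = 0.180). Thus 2 of 9 members, G0s2 and Plin4, had groups free of overlap with CORT under isotype, beside 5.04% of all genes, and 1 of 9, G0s2, with CORT under αACBP, beside 2.74%. In αACBP + Vehicle the values were 100.3, 27.6, 2.59, 8.92 and 1.45 CPM, and in αACBP + CORT 26.5, 15.3, 10.3, 12.7 and 4.32 CPM. The first of these groups held both the highest and the lowest liver of the series.

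For Plin4 the log2 fold change with αACBP without CORT was 2.36 ± 0.93 (adjusted p = 0.151), and 0.89 without replicate 1, the liver at 100.3 CPM. With CORT under αACBP it was -1.03 ± 0.88 (adjusted p = 0.703), which became 0.45 without the same liver. The value for αACBP under CORT was -1.14 ± 0.88 (adjusted p = 0.699), and the interaction was -3.50 ± 1.28 (adjusted p = 0.298). Hdgfrp2, the gene opposite Plin4, had means of 59.6 ± 4.21, 81.2 ± 20.5, 92.4 ± 13.3 and 83.9 ± 15.7 CPM under isotype without and with CORT and under αACBP without and with CORT, in that order. Its part in the Plin4 counts was not tested.

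**Figure D4:**
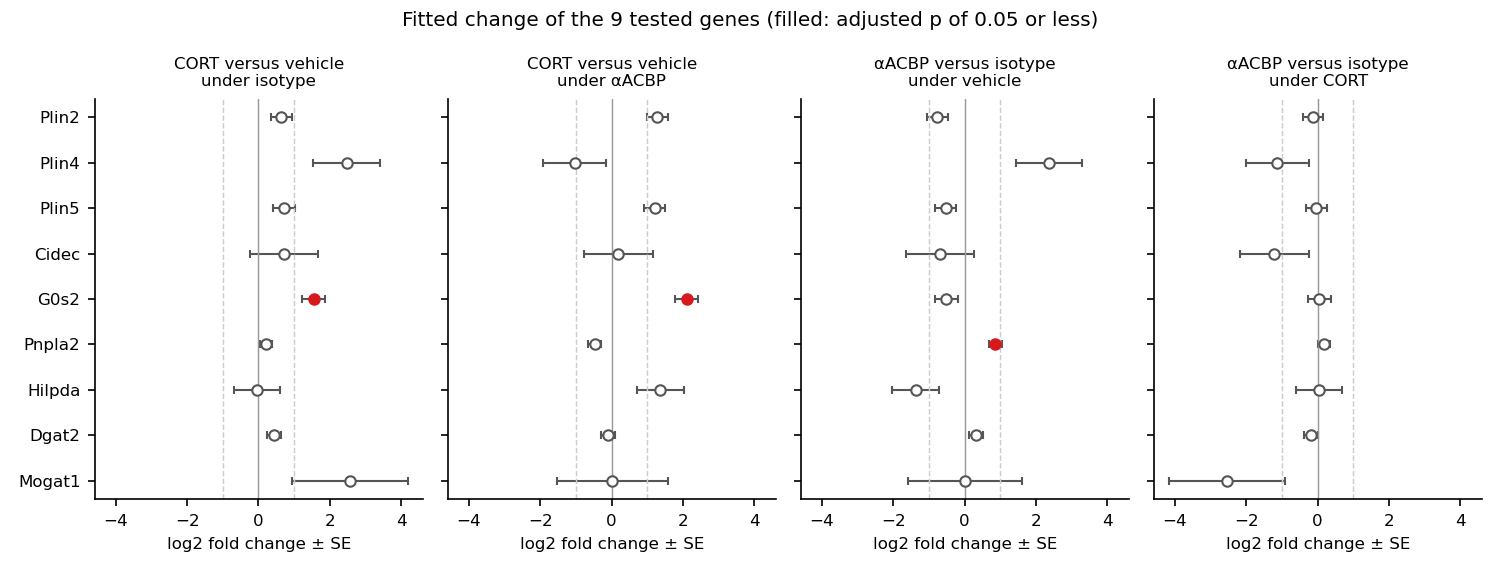
Fitted log2 fold change ± SE of the 9 tested members in 4 comparisons of 5 livers against 5, where filled points have an adjusted p no higher than 0.05, and with broken lines at the fold limit of 1. G0s2 is filled in both CORT comparisons at 1.55 and 2.11, Pnpla2 is filled at 0.86 with αACBP without CORT, and no point is filled with αACBP under CORT.

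Of the droplet fusion genes, Cidea, known from brown fat, had 0 counts in every liver, which allows at most 0.205 CPM in any of them. Cidec, which enlarges droplets in fat and in steatotic liver, was low and scattered. It was at 1.75, 3.49, 3.60, 0.06 and 0.90 CPM in Isotype + Vehicle and at 1.30, 5.26, 4.86, 0.78 and 4.00 CPM in Isotype + CORT. The groups overlapped over most of their range, with a log2 fold change of 0.72 ± 0.95 (adjusted p = 0.823). Under αACBP it ranged from 0 to 3.43 CPM without CORT and from 0.81 to 2.24 CPM with CORT, and αACBP gave -0.69 ± 0.96 without CORT (adjusted p = 0.777) and -1.22 ± 0.97 with CORT (adjusted p = 0.70). These differences were within the spread between livers.

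Of the synthesis genes, Dgat2 was at 456, 360, 381, 297 and 357 CPM in Isotype + Vehicle and at 475, 377, 358, 518 and 752 CPM in Isotype + CORT. The CORT group was higher on average, 496 ± 158 against 370 ± 57.0 CPM, but its lowest livers lay within the vehicle range and the log2 fold change of 0.42 ± 0.20 did not pass (adjusted p = 0.284). Without replicate 5 of Isotype + CORT, the liver at 752 CPM, it was 0.22. With αACBP the means were 459 ± 114 CPM without CORT and 433 ± 31.8 CPM with CORT. The effect of αACBP was 0.31 ± 0.20 without CORT (adjusted p = 0.394) and -0.20 ± 0.20 with CORT (adjusted p = 0.792), and the interaction was -0.51 ± 0.28 (adjusted p = 0.549). Mogat1, an acyltransferase that acts on monoacylglycerol, had 0 counts in 2 livers of Isotype + CORT and 1.98, 2.74 and 3.67 CPM in the other 3, while every liver of the other groups was at 1.03 CPM or less. The log2 fold change with CORT under isotype was 2.56 ± 1.63 (adjusted p = 0.499) and that with αACBP under CORT was -2.54 ± 1.62 (adjusted p = 0.588).

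Counted over all members, 8 of the 9 tested had a positive log2 fold change with CORT under isotype, with a median of 0.71 beside a median of 0.0022 over all genes tested. Among the positive values are those of the low genes Cidec (0.72 ± 0.95) and Mogat1 (2.56 ± 1.63). The members were chosen with earlier results of these data known, so such tallies describe them and are not independent evidence. With CORT under αACBP 6 were positive and 3 negative, with a median of 0.19 beside 0.0067. For αACBP + CORT against Isotype + Vehicle 8 were positive and 1 negative, with a median of 0.39 beside 0.0029. With αACBP without CORT 4 were positive and 5 negative, with a median of -0.51 beside -0.019. With αACBP under CORT 3 were positive and 6 negative, no member was called beside 0.597% of genes, and 0 were free of overlap beside 3.22%. In that comparison 0 members reached an unadjusted p of 0.05, which 12.5% of genes did, and DESeq2 called 0 members beside 1.31% of the genes to which it gave an adjusted p. With αACBP without CORT 0 members were called beside 1.3% of genes, 4 had an unadjusted p under 0.05 beside 20.6%, and 2 of 9, Pnpla2 and Hilpda, were free of overlap beside 7.13%. For αACBP + CORT against Isotype + Vehicle 0 were called beside 0.0684% of genes, 0 were free of overlap beside 3.31%, and 3 had an unadjusted p under 0.05 beside 7.59%. For the interaction 0 were called beside 0.143%, and 2 had an unadjusted p under 0.05 beside 10.6%. DESeq2 called 1 member, Plin4, with αACBP without CORT beside 2.57% of genes. For αACBP + CORT against Isotype + Vehicle it called 1, G0s2, beside 0.527%, and for the interaction 0 beside 1.85%. With CORT under αACBP it called 3, Plin2, Plin5 and G0s2, beside 1.1%, and with CORT under isotype 1, G0s2, beside 3.28%. The comparisons share groups and so are not independent of each other.

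The other genes of the pathway were read from 5 lists with 42 symbols, of which 39 were tested. With CORT under isotype 2 were called higher and 1 lower, all 3 in the list of other lipases and their cofactors. Mgll, the lipase of monoacylglycerol, rose from 81.5 ± 7.40 to 173 ± 51.8 CPM (log2 fold change 1.09, adjusted p = 0.00183). Abhd6, which also acts on monoacylglycerol, rose from 25.8 ± 7.88 to 67.8 ± 26.9 CPM (1.39, adjusted p = 0.000980). Pnpla3, a relative of Pnpla2 whose human variant is tied to fatty liver, fell by 3.27 on the log2 scale, from 44.2 ± 31.6 to 4.58 ± 2.47 CPM (adjusted p = 0.0225), and without any of 4 livers in turn its adjusted p was between 0.0533 and 0.0584. With voom the call was lost too (adjusted p = 0.126). Abhd5, the cofactor of the Pnpla2 lipase and singled out after its values were seen, was not called in any comparison. Its log2 fold change was 0.67 with CORT under αACBP (adjusted p = 0.107) and -0.59 with αACBP without CORT (adjusted p = 0.0586), both with groups free of overlap.

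Of the other lists, none had a gene called with CORT under isotype. The largest values were -0.57 for Acsl3 (adjusted p = 0.335) and 0.44 for Rab18 (adjusted p = 0.150) among other coat and surface proteins, of which 9 of 10 were tested. Among the genes of droplet formation they were -0.81 for Fitm1 (adjusted p = 0.608) and 0.62 for Fitm2 (adjusted p = 0.192). The synthesis list gave 1.31 for Mogat2 (adjusted p = 0.825), a value whose sign depended on 1 liver, and -0.78 for Lpin1 (adjusted p = 0.488). Of the regulators, Creb3l3, a liver transcription factor of the fasting response, gave 0.73 and passed the adjusted p but not the fold limit (adjusted p = 0.0174, or 0.0503 and 0.0625 without replicate 2 or 5 of Isotype + Vehicle), and Ppara, the receptor that drives fatty acid oxidation, gave 0.65 (adjusted p = 0.168). With CORT under αACBP the 1 gene called was Agpat2, an enzyme of phosphatidic acid synthesis, which rose from 101.5 ± 25.0 to 234 ± 73.8 CPM (1.20, adjusted p = 0.0136). Its adjusted p was above 0.05 without any of 5 livers in turn, replicates 1, 3 and 5 of αACBP + Vehicle and replicates 1 and 2 of αACBP + CORT. Agpat2 was also lower with αACBP without CORT, by a log2 fold change of -0.93 (adjusted p = 0.0184), short of the fold limit, and its adjusted p was 0.0776 without replicate 1 of Isotype + Vehicle and 0.0602 without replicate 1 of αACBP + Vehicle. In the other 4 comparisons none of the 39 was called.

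The genes whose log2 CPM followed that of G0s2 most closely over the 20 livers were Pxmp4 (Pearson r = 0.885), a peroxisomal membrane protein, Acsl1 (r = 0.850), the main long-chain acyl coenzyme A synthetase of the liver, and Fas (r = 0.844), the death receptor. These livers include both CORT groups, so the likeness includes the difference between groups.

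Genes of other kinds moved with the same groups. The summed level of 10 clock genes, whose products time the daily rhythm, ranged from 630 to 1420 CPM in αACBP + Vehicle against 213 to 536 CPM in Isotype + Vehicle. There Dbp and Ciart were called higher and Arntl lower. Of the 10 genes, 7 had a positive and 3 a negative log2 fold change, so the sum is not a common rise of all 10. In αACBP + CORT the sum was 166 to 261 CPM in 4 livers and 730 CPM in replicate 5, the liver with the lowest Plin2, Plin5 and G0s2 and the highest Pnpla2 of its group. Dbp was at 195 CPM in that liver and at 6.44 to 9.61 CPM in the other 4, and it was at 151 to 611 CPM in αACBP + Vehicle. The part of the clock genes in the Pnpla2, Plin2 and Plin5 values was not tested, and the hour at which each liver was taken is not given in the sources used here.

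**Figure D5:**
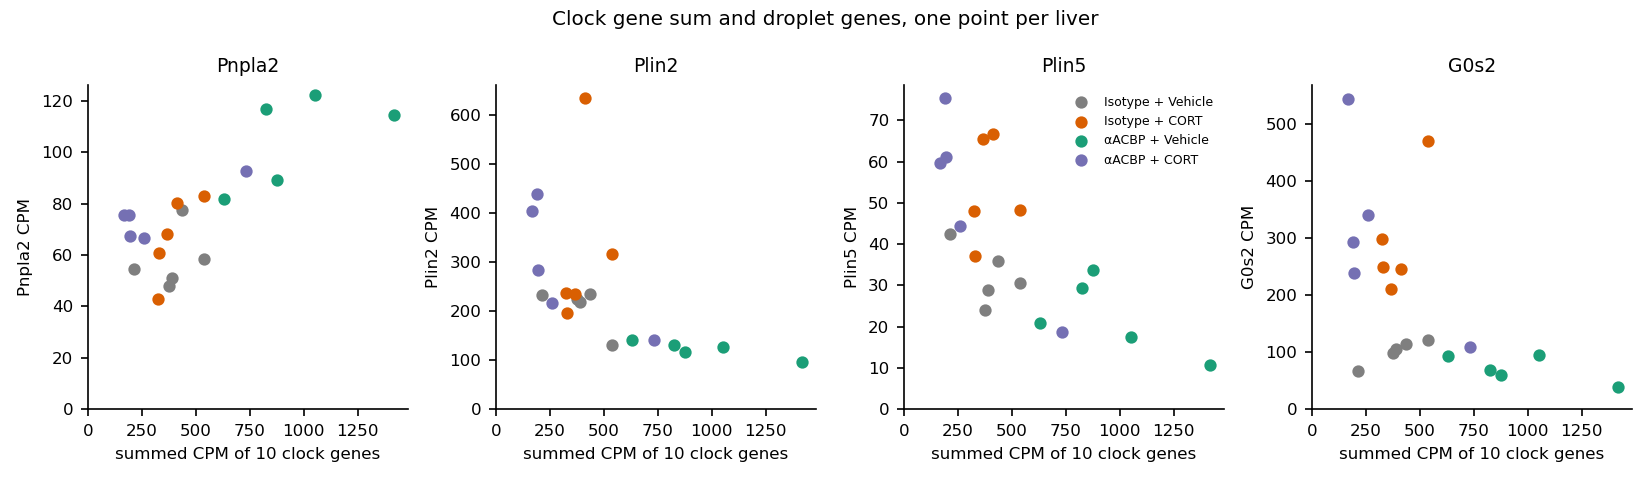
CPM of Pnpla2, Plin2, Plin5 and G0s2 against the summed CPM of 10 clock genes, each point being 1 liver of the 4 groups. The αACBP + Vehicle livers lie at 630 or more on the clock sum, and 1 αACBP + CORT liver, at 730, lies beside them.

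With CORT under isotype, 4 of 6 markers of Kupffer cells, the resident macrophages of the liver, were called lower, and their summed level was 96.9 to 295 CPM against 263 to 525 CPM in Isotype + Vehicle. With αACBP under CORT 1 of the 6, Clec4f, was called higher, with a sum of 363 to 499 CPM. The part of these cells in the droplet gene values was not tested. The sum of 5 hepatocyte genes was 78494 to 133465 CPM in Isotype + CORT and 64785 to 112415 CPM in Isotype + Vehicle, and that of αACBP + Vehicle reached from 35669 to 88291 CPM. A list of 5 glucocorticoid response genes (Fkbp5, Tsc22d3, Per1, Sgk1 and Zbtb16) served as a check of CORT. With CORT under isotype 1 was positive, 4 were negative and 1 was called higher (median log2 fold change -0.40). With CORT under αACBP 2 were positive, 3 were negative and 0 were called (median -0.46). The list thus did not rise as a whole with CORT under either antibody. With αACBP without CORT all 5 were positive and 0 were called (median 0.26). Per1 is also on the clock list.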

How the data were processed

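Livers of 20 mice were profiled by paired-end RNA sequencing. The authors aligned the reads with HISAT2 and counted them per gene with HTSeq-count (union mode, with non-unique features included, a setting for reads that fall on more than 1 gene), and deposited 1 table of raw counts. The study's methods name GRCm39 and the submitters' processing notes name mm10, and 808 gene names in the table are clone names that begin with RP23 or RP24. The annotation release and the strand setting are not given in the sources used here, so coordinates come from matching identifiers to GENCODE M39 on GRCm39, where 91.4% were found. Between 36.6% and 40.4% of all counts were on genes, and the 5 lines that name no gene were left out. Members and gene lists were chosen with earlier results of these data known.

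Counts were fitted with edgeR 4.0.16 in R 4.3.3 (filterByExpr, TMM, glmQLFit with robust estimation, glmQLFTest, 4 group means over all 20 livers). P-values were adjusted by Benjamini-Hochberg over 16071 genes, and the fold limit of the call rule is the study's, which names a p limit of 0.05 without saying whether it was adjusted. The labels call the samples biological replicates, 5 per group, and p-values weigh each difference against the spread between them. The study housed mice in groups. The cage of each liver is not given in the sources used here, so differences between cages cannot be told apart from those between mice. No pair of livers agreed within counting noise (chi-square per degree of freedom at least 12.4). The floor of 3 counts covers counting error only, whereas the SD and SE values include the spread between livers. Main transcripts are those tagged canonical. Alternatives were DESeq2 1.42.0, limma 3.58.1 with voom, other scalings, filters and call rules, the compared groups alone, a replicate block and each liver left out. The ratio of G0s2 to Pnpla2 counts was tested with scipy by exact permutation. Methods were tested on simulated data with planted changes larger than most of those seen for the members. That test does not cover smaller changes, nor genes as low as Cidec, Hilpda and Mogat1. Genes named are the 10 members, the listed genes called in any comparison, the 2 per list with the largest change with CORT under isotype, and the 3 genes most like each called member. Marker, clock and glucocorticoid response genes come from fixed lists, and Abhd5, Hdgfrp2 and Adrb3 were singled out after their values were seen.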

Additional observations from a re-analysis of the deposited data

Results flagged for a closer look

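In each group of 5 livers the gap between the most extreme liver and its nearest neighbour was compared with the group's range by Dixon's test, for the 9 members with counts and the ratio of G0s2 to Pnpla2. Of 40 groups of values tested, 4 had a liver past the 95% limit, where chance gives about 1 in 20. Plin2 in Isotype + Vehicle had a low liver, replicate 4, at 130 CPM with the next at 220 CPM (gap over range 0.850). Plin2 in Isotype + CORT had a high liver, replicate 5, at 636 CPM with the next at 317 CPM (0.727). Plin4 in αACBP + Vehicle had a high liver, replicate 1, at 100.3 CPM with the next at 27.6 CPM (0.736). Mogat1 in αACBP + Vehicle had a liver at 1.03 CPM with the next at 0.220 CPM (0.785). The interaction of CORT and αACBP passed the limit on the adjusted p for 0 members.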

How the results depend on the processing

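The 2 calls of G0s2 with CORT held under all alternatives run, at 1.5 to 1.54 under isotype and 1.99 to 2.21 under αACBP, and without each liver in turn at 1.31 to 1.64 and 1.79 to 2.32. In the order CORT under isotype, αACBP under CORT, CORT under αACBP, αACBP without CORT, αACBP + CORT against Isotype + Vehicle and the interaction, 312, 96, 34, 209, 11 and 23 genes were called, and leaving out 1 liver gave 205 to 421, 52 to 191, 5 to 153, 87 to 343, 1 to 23 and 6 to 101 (the lowest without Isotype + Vehicle replicate 2, αACBP + CORT replicate 3, αACBP + Vehicle replicate 3, Isotype + Vehicle replicates 5 and 1 and αACBP + CORT replicate 3, the highest without Isotype + CORT replicate 3 for the first 2, Isotype + Vehicle replicate 4 for the fourth and αACBP + CORT replicate 5 for the others), with 1 to 1, 0 to 0, 1 to 3, 0 to 0, 0 to 1 and 0 to 0 members called. DESeq2 called 527, 211, 112, 285, 60 and 188 genes. With it 3 members were called for CORT under αACBP (Plin2, Plin5 and G0s2) and 1 for αACBP without CORT (Plin4). For αACBP + CORT against Isotype + Vehicle it called 1 member (G0s2). With voom 57 genes were called for αACBP under CORT and 49 for the interaction. For CORT under αACBP it called 155 genes with 3 members (Plin2, Plin5 and G0s2). It called 150 genes with 1 member, G0s2, for αACBP + CORT against Isotype + Vehicle. For αACBP without CORT it called 310 genes with 1 member, Hilpda. The adjusted p alone gave 514, 154 and 826 genes for CORT under isotype, αACBP under CORT and αACBP without CORT, the last with 1 member, Pnpla2. An unadjusted p with the same fold limit gave 890, 520, 395, 537, 223 and 791 genes and 2, 0, 4, 2, 1 and 1 members. The groups compared were also fitted alone, which cannot be done for the interaction. In the order above, 231, 27, 30, 227 and 62 genes were then called, with 2, 0, 2, 0 and 1 members. A minimum of 10 counts in every liver gave 2 members among 46 genes for CORT under αACBP. It gave 1 member among 15 genes for αACBP + CORT against Isotype + Vehicle, and 60 genes for the interaction. For the interaction no filter gave 53 genes and DESeq2's size factors 35. For αACBP under CORT the sign turned for Plin2 (0.12) and Plin5 (0.0034) with voom, and without 1 liver for G0s2 (-0.26 to 0.28), Plin2 (-0.31 to 0.26), Plin5 (-0.21 to 0.18), Dgat2 (-0.29 to 0.0020) and the ratio of G0s2 to Pnpla2 (-0.53 to 0.13). Plin4 with CORT under αACBP turned with voom (0.27) and without 1 liver (-1.40 to 0.45). Mogat2 turned with voom (-0.66), the replicate block (-1.85) and 1 liver left out (-1.34 to 1.96). The causes were not tested. Replicate numbers did not pair the livers (r of deviations -0.10 to 0.097 over 30 pairs), and with them as a replicate block 284, 90, 36, 185, 10 and 20 genes were called, with the members called the same in every comparison. Leaving out a liver of the ratio was chosen after seeing the data.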
